A study of Rattus norvegicus with 85 samples.

Results

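A-to-I RNA editing in the amygdala (AMY) of newborn first-generation (F1) rats was compared between the offspring of control dams and the offspring of dams exposed to prereproductive stress (PRS). All samples labelled AMY, P0, F1 were taken, which gave 11 of the 85 samples of the series, 5 control and 6 PRS. The pups came from Sprague-Dawley mothers and were sampled on the day of birth (P0). The mothers of the PRS pups had gone through a 7-day unpredictable stress procedure in adolescence, before they were mated with untreated males, and the mothers of the control pups had not. The pups of both groups received no treatment of their own. The control group held 2 females and 3 males and the PRS group 3 females and 3 males. The labels name no dam or litter, so pups may be littermates, and the p-values below measure the spread between these samples. The series as a whole also holds prefrontal cortex (PFC), adult, second-generation (F2) and oocyte samples, and the F1 PFC and F2 AMY samples serve here for comparison.

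ADAR enzymes turn adenosine into inosine in double-stranded stretches of RNA, and inosine is read as guanosine by the ribosome and by sequencing. The best known targets in the brain are receptors and channels of neurons. In AMPA and kainate glutamate receptors editing changes single residues that set calcium permeability, desensitization and assembly, and in the serotonin receptor 2C (Htr2c) it weakens coupling to G proteins. The amygdala is a centre of fear learning and of the response to threat.

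Editing was measured with microfluidics-based multiplex PCR and sequencing (mmPCR-seq), in which chosen stretches of transcripts are amplified from cDNA, and the level at a site is the percent of reads with G in place of the genomic A. The sites that share an amplicon are read on the same PCR product. For the glutamate receptor amplicons on which the results below turn, and for Htr2c, the parts of the primers that match the rat transcript are shown, all in capitals and 5′ to 3′, without the tail that all primers of the assay share.

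Grik2 Q/R, Met/Val and G, forward: TTTGGGCATGAGCTCAGAA
Grik2 Q/R, Met/Val and G, reverse: TGTCATAGCCAGGTTTAGTCC
Grik2 Y/C and I/V, forward: ACCAAATGCCTCCCACTATC
Grik2 Y/C and I/V, reverse: TCTCCCCTGATATCTGGATGT
Grik1, forward: TCTCTGACTGCCCCATATTCT
Grik1, reverse: GTTTGGAGTTGGAGCTCTCAT
Gria2 R/G and L, forward: TTTTCCTTACTTCCCGAGTCC
Gria2 R/G and L, reverse: CATCGCCACACCTAAAGGAT
Gria2 Q/R and Q, forward: GTAAAGAACCACCACACACCT
Gria2 Q/R and Q, reverse: ACATTGGGGTCAGTGTAGTTT
Gria3 R/G and L, forward: TGCCTTGTTCACTGAGTTTCA
Gria3 R/G and L, reverse: GAGTCGACCATGAACGAGTAC
Gria4 R/G and L, forward: GAGTTTCAAAACGGCAAGGT
Gria4 R/G and L, reverse: CTGGAGTCCACGATGAATGAA
Htr2c A, B, C and D, forward: CTTAGTCCGCGAATTGAACC
Htr2c A, B, C and D, reverse: GGGGATTATGTCTGGCCTTTA

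Each of the 146 sites of the study reached 50 reads in 3 or more samples on either side and was tested, and 139 of them had a value in all 11 samples. Coverage added up over these sites, so that a read spanning several sites enters several times, was 964927 to 2757627 for controls (median 1696417) and 886678 to 2797242 for PRS pups (median 2524855). The median site and sample had 9704 reads, and the 95% Wilson interval at a site had a median width of 0.459 percentage points. PCR reads without molecular identifiers are not independent molecules, so such intervals cover counting error only. Each deposited sample carries a number that was read here as a library number, and no label explains it. Sets of 48 consecutive numbers were formed here, and whether a set was processed together is not stated. Control 59, 61 and 56 and PRS 52, 53, 60 and 55 fell in the highest set among these samples (numbers up to 240), called the last set here. Control 46 and PRS 49 and 50 fell in the first, and control 40 in a middle set that holds no other of these 11 samples. The 3 controls of the last set are the 3 male controls, so sex and set cannot be told apart among the controls. By Dixon's test within each group, PRS 53 lay far from the rest of its group at 16 of the 146 sites and control 40 at 11, against 1 to 7 sites in the other 9 samples. The files hold editing levels and no expression values, so the tissue label could not be set against marker genes. In bulk tissue, a change of editing within cells and a change in the mix of cells that express a transcript cannot be told apart.

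Editing was lower in PRS pups at most of the highly edited sites. Mean editing over the 139 sites with values in all samples was 9.37%, 9.48%, 9.71%, 10.4% and 10.1% in control 59, 40, 46, 61 and 56, and in PRS the lowest sample was at 8.75%, the median at 9.14% and the highest at 9.62%. The 2 highest PRS samples were above the lowest control, and the groups overlapped. The group means were 9.81% ± 0.424 (SD, n = 5) and 9.19% ± 0.298 (n = 6), a difference of -0.621 percentage points (exact permutation test of means, two-sided, p = 0.0173). With labels permuted only within sex p was 0.03, and within library-number sets 0.0286 (exact permutation). In the latter, control 40, alone in its set, always kept its label. The difference was -0.688 points without control 40 and -0.517 without PRS 53. It was no longer past 0.05 in the last library set alone (-0.707 points, exact permutation p = 0.143), with reads pooled over a group (exact permutation p = 0.0714), on the logit scale, which gives weakly edited sites more weight (exact permutation p = 0.208), or without the AMPA and kainate receptor sites (-0.179 points, exact permutation p = 0.457).

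**Figure D1:**
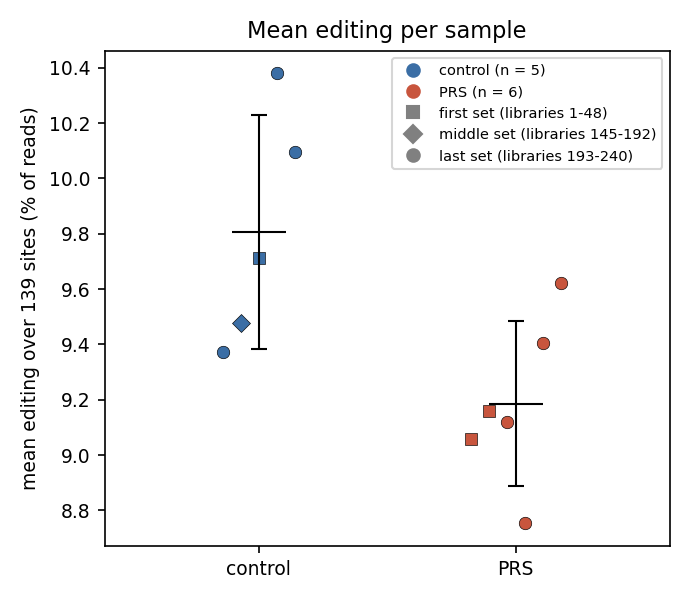
Mean editing over 139 sites (percent of reads) in each F1 newborn amygdala sample, with the group mean and SD in black and symbols for the set of library numbers. The PRS samples sit between 8.75% and 9.62% and the controls between 9.37% and 10.4%.

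Site by site, 92 of the 146 sites were lower in PRS pups, 53 were higher and 1 was equal, and the median difference was -0.0567 percentage points. No site passed a false discovery rate (FDR) of 0.1 (0% of those tested; exact Mann-Whitney U test, smallest Benjamini-Hochberg adjusted p = 0.316), and none did with limma on logit levels, where 16 had an unadjusted p under 0.05. With 5 against 6 samples the smallest p the exact test allows is 0.00433. The unadjusted exact p was under 0.05 at 11 sites (7.53%), of which 9 were lower in PRS (6.16%) and 2 higher (1.37%). At 2 sites (1.37%) the groups did not overlap, and both are in Grik2. When nonsynonymous and other sites were adjusted separately, these 2 Grik2 sites passed (1.37% of 146; adjusted p = 0.0887 for each, exact test). Among the 27 sites edited to 10% or more on average in either group, 21 were lower and 6 higher in PRS, with a median difference of -2.51 points. The 6 of these 27 sites with an unadjusted exact p under 0.05 were all in the glutamate receptors described below. Both means were under 1% at 58 sites.

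**Figure D2:**
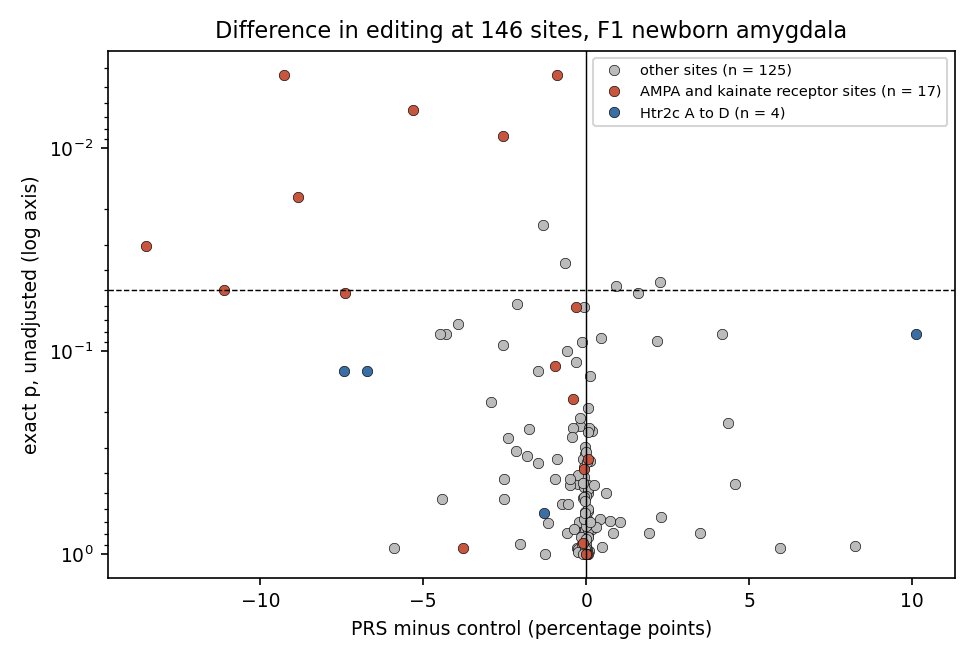
Difference in mean editing level (PRS minus control, percentage points) against the unadjusted exact Mann-Whitney p (log axis, small values at the top) for 146 sites. The 7 glutamate receptor sites above the dashed line at 0.05 all lie on the left, and the Htr2c sites lie below the line.

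The glutamate receptors held most of the sites with low p-values. Of the 17 sites in the AMPA receptor subunits Gria2, Gria3 and Gria4 and the kainate receptor subunits Grik1 and Grik2, 14 were lower in PRS and 3 higher, and 7 had an unadjusted p under 0.05, all lower. That is 41.2% of the list against 7.53% of all sites. The median difference was -0.953 points in the list and -0.0567 over all sites. Outside these receptors 4 of 129 sites (3.10%) had a p under 0.05, 2 lower and 2 higher. The list was chosen with earlier results of these data known, and several of its sites are read on the same amplicon, so the counts describe the list and are no test of it. The mean over the 17 sites spanned 30.1% to 34.0% among controls and 26.9% to 31.0% among PRS pups. Over the 122 other sites with full data it spanned 5.95% to 7.22% and 6.08% to 6.85%. The glutamate receptor mean was lower by 3.79 points in PRS, and that of the other sites had a difference of -0.179.

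**Figure D3:**
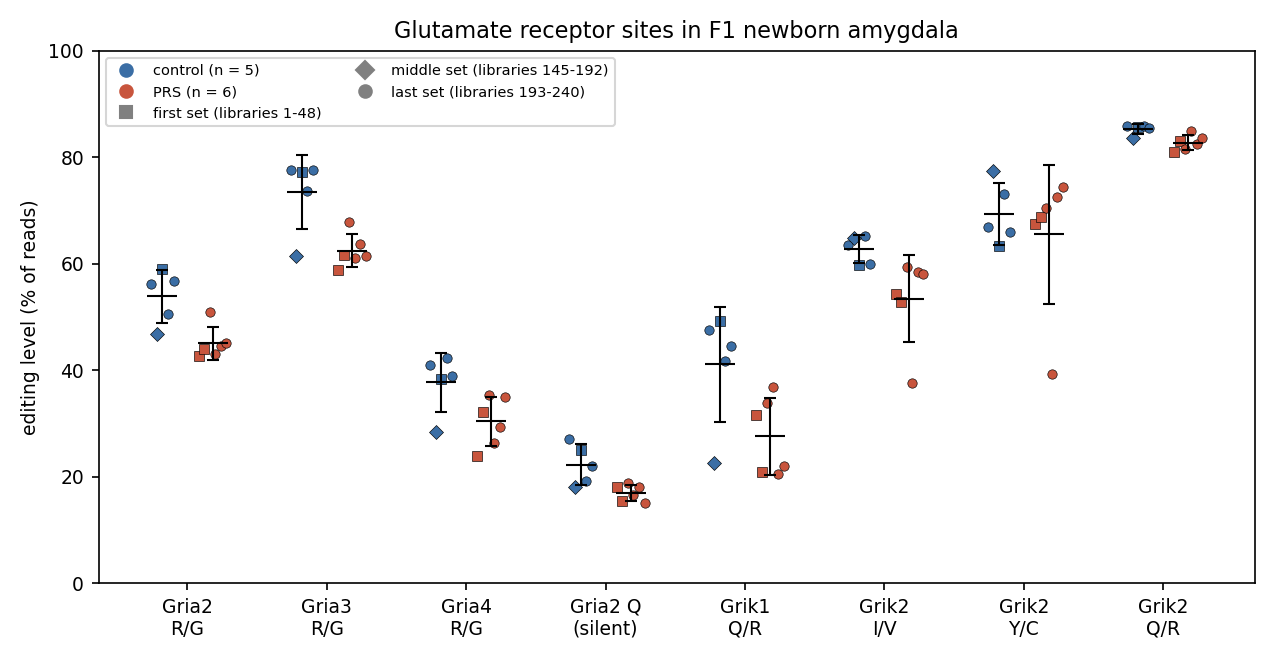
Editing level (percent of reads) at 8 glutamate receptor sites in each F1 newborn amygdala sample, with group means and SD in black and symbols for the set of library numbers. At Grik2 I/V every PRS sample is below every control, whereas at the R/G sites and Grik1 the control from the middle library set (diamond, control 40) sits within the PRS range.

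Kainate receptors are glutamate-gated channels that act before and after the synapse. In Grik2, the GluK2 subunit, the I/V site (chromosome 20, position 53408971, rn4, minus strand) and the Y/C site (53408958) lie in the region that codes for the first membrane segment, and the Q/R site (53378633) in the pore. Editing at I/V was 63.6%, 64.9%, 59.8%, 65.2% and 60.0% in control 59, 40, 46, 61 and 56, and had a lowest value of 37.6%, a median of 56.2% and a highest value of 59.3% in PRS. Each PRS sample was below each control. The means were 62.7% ± 2.63 (SD, n = 5) and 53.4% ± 8.16 (n = 6), with a Hodges-Lehmann shift (the median of all pairwise differences) of -6.80 points and an exact 97.0% interval from -22.4 to -1.5 (exact Mann-Whitney p = 0.00433, adjusted p = 0.316). The lowest value is that of PRS 53, and without it the difference in means was -6.12 instead of -9.28 points. On the same amplicon, Y/C editing was 69.3% ± 5.77 in control and 65.5% ± 13.1 in PRS, with PRS 53 at 39.3% and the other 5 PRS samples at 67.5% to 74.5%, within the control range of 63.3% to 77.4% (exact p = 0.931). The Hodges-Lehmann shift at Y/C was 1.00 point upwards. Without PRS 53 the Y/C difference was 1.46 points, in the other direction.

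The Met/Val site of Grik2 (53378637) is a weakly edited neighbour of Q/R on the same amplicon. Its levels were 2.9%, 3.1%, 2.4%, 2.5% and 2.7% in the controls and ran from 1.1% over a median of 1.85% to 2.3% in PRS, again with no overlap. The means were 2.72% ± 0.286 (n = 5) and 1.82% ± 0.412 (n = 6; exact p = 0.00433, adjusted p = 0.316). At Q/R, which governs the calcium permeability of the channel, editing was 85.8%, 83.7%, 85.7%, 85.8% and 85.5% in the controls and 81.0% to 84.9% in PRS, with a PRS median of 82.7%. The controls other than control 40 were above each PRS sample. The shift was -2.70 points (interval -4.5 to -0.7; exact p = 0.00866, adjusted p = 0.316). The synonymous G site on this amplicon (53378650) was at 4.22% ± 0.589 and 3.27% ± 1.33 (exact p = 0.119). The largest difference of all 146 sites was at Grik1, the GluK1 subunit, at its glutamine-to-arginine site (chromosome 11, position 27749588). The levels were 47.6%, 22.5%, 49.2%, 41.7% and 44.5% in control 59, 40, 46, 61 and 56. In PRS they ran from 20.5% over a median of 26.8% to 36.8%. Control 40 lay among the PRS samples and the other 4 controls lay above them. The means were 41.1% ± 10.8 (n = 5) and 27.6% ± 7.26 (n = 6), a shift of -14.6 points (interval -27.1 to -0.4; exact p = 0.0303, adjusted p = 0.544).

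AMPA receptors carry most fast excitatory transmission. Their R/G site, just before the flip/flop module, speeds recovery from desensitization when edited, and it was lower in PRS in all 3 subunits measured. In Gria2 (chromosome 2, position 172272247) the control levels were 56.2%, 46.8%, 59.0%, 50.6% and 56.8%, and those of PRS ran from 42.7% over a median of 44.2% to 51.0%. Only PRS 52, the highest of its group, was above a control other than control 40. The means were 53.9% ± 5.03 and 45.0% ± 3.05 (shift -9.55 points, interval -14.4 to -2.2; exact p = 0.0173, adjusted p = 0.506). In Gria3 (chromosome X, position 3477800) the levels were 77.6%, 61.4%, 77.3%, 73.7% and 77.6% in the controls and 58.8%, 61.5% and 67.9% as the lowest, median and highest in PRS. The means were 73.5% ± 6.97 and 62.4% ± 3.11 (exact p = 0.0498, adjusted p = 0.544), and again control 40 alone of the controls was within the PRS range. In Gria4 (chromosome 8, position 994881) the means were 37.8% ± 5.53 and 30.4% ± 4.65, with control 40 at 28.3%, the other controls at 38.3% to 42.3% and the PRS samples at 23.9% to 35.4% (exact p = 0.0519, adjusted p = 0.544).

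The Gria2 Q/R site (position 172288193), which makes AMPA channels impermeable to calcium, was edited almost completely in both groups, at 99.7% ± 0.114 in control and 99.7% ± 0.137 in PRS (interval of the difference -0.3 to 0.1 points; exact p = 0.381). The synonymous Q site 4 bases away (172288189) was at 27.1%, 18.1%, 25%, 19.2% and 22% in the controls. In PRS its lowest, median and highest levels were 15.0%, 17.3% and 18.8%. Control 40 was the only control within the PRS range. The means were 22.3% ± 3.80 and 17.0% ± 1.55 (shift -4.80 points, interval -10.0 to -0.4; exact p = 0.00649, adjusted p = 0.316). The leucine sites next to R/G were at 1.00% ± 0.245 and 0.7% ± 0.141 in Gria2 (exact p = 0.0606) and at 1.5% ± 0.539 and 1.10% ± 0.486 in Gria3 (exact p = 0.173).

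Library set, sex and single samples bear on these counts. In the last library set (3 control, 4 PRS) 13 of the 17 glutamate receptor sites were lower in PRS, and the differences were -16.3 points at Grik1, -12.8 at Gria3 R/G, -9.18 at Gria4 R/G, -8.61 at Gria2 R/G, -9.58 at Grik2 I/V and -2.58 at Grik2 Q/R. In males 13 and in females 15 of the 17 were lower. With labels permuted within library-number sets, 9 of the 17 had an exact p under 0.05, among 18 of all 146 sites (12.3%). Control 40 is alone in its set and kept its label in every such assignment, so these counts are close to those without it. With labels permuted within sex, 6 of the 17 had an exact p under 0.05, among 10 of all sites (6.85%). Without control 40 it was 9 of the 17 among 19 of all sites (13%), and without PRS 53 it was 8 among 12 (8.22%). The count for the 17 sites lay between 5 and 9 whichever sample was left out, and 0 sites passed the FDR in each of these settings.

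Htr2c is a G protein-coupled receptor of serotonin, and its sites A to D lie within 13 bases on chromosome X (31041849, 31041847, 31041842 and 31041837) in codons of the second intracellular loop. The lowest coverage of any sample at these sites was 3388 reads. Editing at A was 68.7%, 80.4%, 86.9%, 86.1% and 87.8% in control 59, 40, 46, 61 and 56, and had a lowest value of 65.9%, a median of 75.6% and a highest value of 80.8% in PRS. Of the controls, 46, 61 and 56 were above every PRS sample. The means were 82.0% ± 7.97 (n = 5) and 74.6% ± 5.92 (n = 6), with a shift of -7.85 points and an interval from -17.5 to 3.7 (exact p = 0.126, adjusted p = 0.591). At B the levels were 58.3%, 72.6%, 75.9%, 76.5% and 76.8% in the controls and 60.5% to 70.9% in PRS, with a median of 64.5%. The controls other than control 59 lay above every PRS sample at B, and control 59 below them (shift -7.20 points, interval -15.7 to 2.8; exact p = 0.126, adjusted p = 0.591). C, the asparagine-to-serine site, was at 32.0% ± 2.83 and 30.7% ± 2.60 (interval -5.2 to 3.1; exact p = 0.628).

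D was the site with the largest difference upwards among all 146. The control levels were 33.2%, 56.1%, 44.5%, 52.7% and 46.7%, and PRS levels ran from 51.6% over a median of 55.2% to 67.6%. The highest 3 PRS samples were above all controls, and the 3 lowest controls were below all PRS samples. The means were 46.6% ± 8.82 and 56.8% ± 6.06, a shift of 8.15 points with an interval from -1.1 to 23.1 (exact p = 0.0823, adjusted p = 0.544). Leaving out 1 sample at a time moved the difference at Htr2c A between -10.8 and -5.7 points, at Htr2c B between -10.2 and -5.54 and at Htr2c D between 6.77 and 12.5. The smallest adjusted exact p among these was 0.293, at Htr2c D without control 40. The 3′ UTR site of Htr2c at 31014486 was at 9.1% to 11.2% in the controls and at 7.6% to 10.4% in 5 PRS samples, and at 0.3% in PRS 53 (exact p = 0.268).

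**Figure D4:**
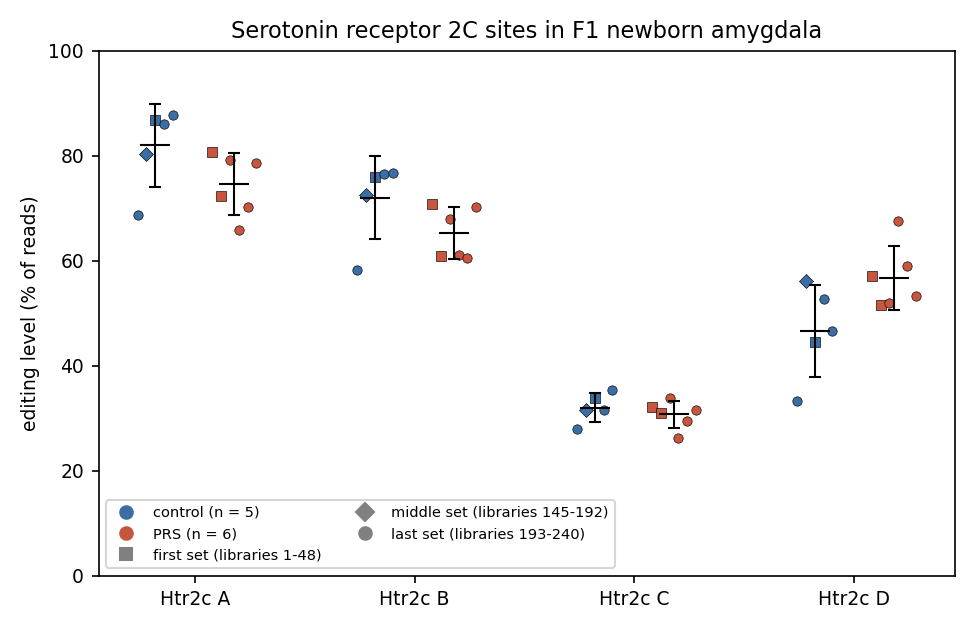
Editing level (percent of reads) at Htr2c sites A to D in each F1 newborn amygdala sample, with group means and SD in black and symbols for the set of library numbers. At A and B most controls lie above the PRS samples, which sit at 65.9% to 80.8% and 60.5% to 70.9%, and at D most lie below the PRS range of 51.6% to 67.6%.

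Across the 11 samples, A and B varied together (Pearson r = 0.967, Spearman rho = 0.918, permutation p = 7.0e-05 and 0.00015, adjusted over 6 pairs 0.00042 and 0.0009). A and C had r = 0.879 and rho = 0.838 (adjusted permutation p = 0.00081 and 0.00606), and B and C had r = 0.774 and rho = 0.702 (adjusted permutation p = 0.00904 and 0.0389). D had r = -0.229 with A, -0.0628 with B and -0.264 with C (adjusted permutation p = 0.610, 0.860 and 0.610). Without the 2 samples farthest from the median of the first site, r was 0.978 for A and B, 0.751 for A and C and 0.686 for B and C, and that of D was -0.658 with A, -0.619 with B and 0.329 with C. In the last library set (7 samples) r was 0.970 for A and B, 0.886 for A and C and 0.796 for B and C. Within the 6 PRS samples r was 0.913 for A and B, 0.906 for A and C and 0.678 for B and C, and that of D was -0.705 with A, -0.410 with B and -0.884 with C, so the pooled values of D differ from those within the group. The 4 sites are read on the same PCR product, so the pairs share depth and amplification.

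Outside the receptors above, 4 sites had an unadjusted p under 0.05. A 3′ UTR site of Usp29, a ubiquitin-specific protease (chromosome 1, position 65275941), was at 3.62% ± 0.942 in control and 2.28% ± 0.977 in PRS (exact p = 0.0238), with as few as 140 reads in a sample. A 3′ UTR site of Ankrd28 (chromosome 16, position 7168469) was at 1.44% ± 0.365 and 0.783% ± 0.279 (exact p = 0.0368). Of the 20 Ankrd28 sites 17 were lower in PRS, 1 of them with a p under 0.05, and the median difference was -0.417 points. The sites from 7168464 to 7168481 share an amplicon, so they are not separate observations. PRS 53 was low at most of them, for example 0.4% at 7168464, where the other PRS samples were at 6.6% to 8.5%. The 3′ UTR site of Selenop, which codes for a selenium carrier (chromosome 2, position 52461816), was at 3.24% ± 0.844 and 4.15% ± 0.596 (exact p = 0.0476). Adjusted p was 0.544 at each of these sites.

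Adarb1 codes for ADAR2, an editing enzyme that also edits its own transcript. The 4 sites listed for it, annotated as 5′ UTR, were 1 lower and 3 higher in PRS, with differences from -2.51 to 2.27 points. Without PRS 53 they were 3 lower and 1 higher. At position 11709490 of chromosome 20 the control levels were 2.8%, 1.5%, 2.5%, 0.7% and 2.5%, and PRS levels ran from 1.9% over a median of 4.15% to 8.1%, the highest being PRS 53 (exact p = 0.0455, adjusted p = 0.544). Without PRS 53 the difference was 1.5 instead of 2.27 points. At 11709485 the means were 14.8% ± 3.11 and 12.2% ± 3.63 (exact p = 0.429).

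Gabra3, Cadps, the ion channels, the RNA-binding and splicing genes and Plekhd1 had no site with a p under 0.05. The Plekhd1 sites and some of the RNA-binding sites lie in 3′ UTRs. Gabra3, a subunit of the inhibitory GABA-A receptor, was at 60.3% ± 7.17 in control and 55.9% ± 5.63 in PRS (interval of the difference -16.7 to 7.2 points; exact p = 0.537). The nonsynonymous site of Cadps, a factor that primes dense-core vesicles (chromosome 15, position 14280228), was at 21.8% ± 3.42 and 17.3% ± 1.93 (exact p = 0.0823). The 5 sites in the ion channels Kcna1, Kcnma1 and Cacna1d had differences from -0.297 to 0.823 points, 3 lower and 2 higher. Of the 15 sites in RNA-binding and splicing genes 8 were lower and 6 higher, with a median difference of -0.00667. The 6 Plekhd1 sites were 1 lower and 5 higher, with a median of 0.07. Of the 29 learning- and stress-related sites that the study listed, 22 were lower and 7 higher, and the 7 with a p under 0.05 (24.1%) were the glutamate receptor sites given above. The study chose that list, so its count is no independent evidence of a direction, and of the 13 members outside the glutamate receptors 9 were lower and 0 had a p under 0.05.

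Several of the larger differences rested on 1 or a few samples. At the Blcap site at 148267329 of chromosome 3, PRS 49 had 52.8% of 9125 reads edited and the other PRS samples 0.8% to 1.8%. At the neighbouring site 148267359, control 40 had 33.3% and the other controls 1.9% to 3.3%. The third Blcap site, 148267368, was at 4.68% ± 1.92 and 8.85% ± 4.37 (exact p = 0.0823). At a Nova1 site (chromosome 6, position 66199286) PRS 50 had 27.5% of 955 reads and the other PRS samples 0.1% to 2.9%, and at a Son site (chromosome 11, position 31628548) the same sample had 22.3% against 0.6% to 2.2%. Igf1, a growth factor, had a 3′ UTR site (chromosome 7, position 24605672) at 4.1% to 41.3% in PRS and at 6.9% to 16.0% in control (exact p = 0.931). The difference at the intronic site of Dffa (chromosome 5, position 166189792) did not rest on 1 sample. PRS 53 was at 0.5% there and the other PRS samples at 4.9% to 15.7%. Control 61 was at 13.0% and the other controls at 0.4% to 2.9% (exact p = 0.227). Leaving out 1 sample gave a difference of 2.8 to 6.69 points. In each case the groups overlapped.

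By class, 29 of 41 nonsynonymous sites were lower and 11 higher in PRS (median -0.11 points, 6 with a p under 0.05, all lower). These 6 are glutamate receptor sites given above. Over all 146 sites 92 were lower and 53 higher. Of 16 synonymous sites 11 were lower, of 74 3′ UTR sites 43, of 6 5′ UTR sites 3, of 7 intergenic sites 5 and of 2 intronic sites 1.

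The same sites were set beside the F1 PFC (5 control, 6 PRS) and the F2 AMY (7 control, 6 PRS), where the PRS pups of F2 had a stressed grandmother and the F2 controls an unstressed one, in both cases the mother of their father. The F1 PFC groups held 1 female and 4 males (control) and 3 females and 3 males (PRS), and the F2 AMY groups 1 female and 6 males (control) and 5 females and 1 male (PRS), so that PRS and sex are largely confounded in F2. The labels do not show which AMY and PFC samples came from the same pup, so they were treated as unpaired. In F1 PFC 11 of the 17 glutamate receptor sites were lower in PRS and 0 had an exact p under 0.05 (10 of all 146 sites, 6.85%). In F2 AMY 6 were lower and 11 higher, and 0 had a p under 0.05 (9 of 146, 6.16%). The F2 controls stood near the F1 PRS pups at several of these sites. Their mean was 28.8% at Grik1 (F1 control 41.1%, F1 PRS 27.6%) and 45.5% at Gria2 R/G (53.9%, 45.0%). At Gria3 R/G it was 64.2% (73.5%, 62.4%) and at Grik2 I/V 54.7% (62.7%, 53.4%). At Grik2 Y/C the F2 control mean of 68.1% was nearer to F1 control (69.3%) than to F1 PRS (65.5%). What sets these control levels apart was not tested. The difference between the stress effects was itself tested by exact permutation of the labels within each comparison. Against F1 PFC, 0 of 146 sites passed the FDR of 0.1 (0%, smallest adjusted p = 0.614 by exact permutation), and 7 had an unadjusted p under 0.05. Mean editing over the 116 sites measured throughout stood at a difference of -0.800 points in F1 AMY and of -1.03 in F1 PFC (exact permutation p = 0.802 for the difference between them). These similar means do not show that the same sites changed in both regions. At Grik1 the effects were -13.5 points in F1 AMY and -1.26 in F1 PFC (adjusted exact permutation p = 0.834). At Grik2 Q/R they were -2.55 and -2.47, at I/V -9.28 and -5.66, at Y/C -3.79 and -4.22 and at Met/Val -0.903 and -0.49. At the R/G sites they were -8.83 and -2.17 in Gria2, -11.1 and -1.98 in Gria3 and -7.39 and 1.65 in Gria4. At Htr2c A they were -7.43 and -35.8, at B -6.74 and -35.4 and at D 10.1 and -13.7 (adjusted exact permutation p = 0.834 for each). At C they were -1.29 and -9.08 (adjusted exact permutation p = 0.965). A difference between the regions was thus not detectable at these sample numbers.

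Against F2 AMY, 3 of 146 sites passed (2.05%), which were Htr2c A, Htr2c B and the Adarb1 site at 11709485, but 0 passed (0%) when labels were permuted within sex. The adjusted exact permutation p within sex was 0.152 at Htr2c A, 0.209 at Htr2c B and 0.152 at the Adarb1 site, and 18 sites had an unadjusted p under 0.05. At Htr2c A, F2 controls ranged from 27.6% to 79.4% and F2 PRS samples from 80.9% to 85.6%, so that the effect was 24.1 points upwards in F2 and -7.43 in F1 (adjusted exact permutation p = 0.0678, labels not held within sex). At B it was 20.5 points in F2 and -6.74 in F1, and at the Adarb1 site 7.34 and -2.51 (adjusted exact permutation p = 0.0678 for each). In all 3 cases the F1 effect taken alone had an unadjusted p above 0.05. Of the F2 samples, 6 controls and 4 PRS samples had library numbers above those of all F1 AMY samples, so generation and library set cannot be told apart. Within those 10 F2 samples the effect was 27.3 points at Htr2c A, 24.1 at Htr2c B and 8.23 at the Adarb1 site, and in the other 3 F2 samples (1 control, 2 PRS) it was 4.15, -0.65 and 2.95. Mean editing over the 125 sites measured throughout had a PRS minus control difference of -0.696 points in F1 and of 0.917 in F2, a difference between effects of -1.61 points (exact permutation p = 0.00424, within sex 0.00369).

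**Figure D5:**
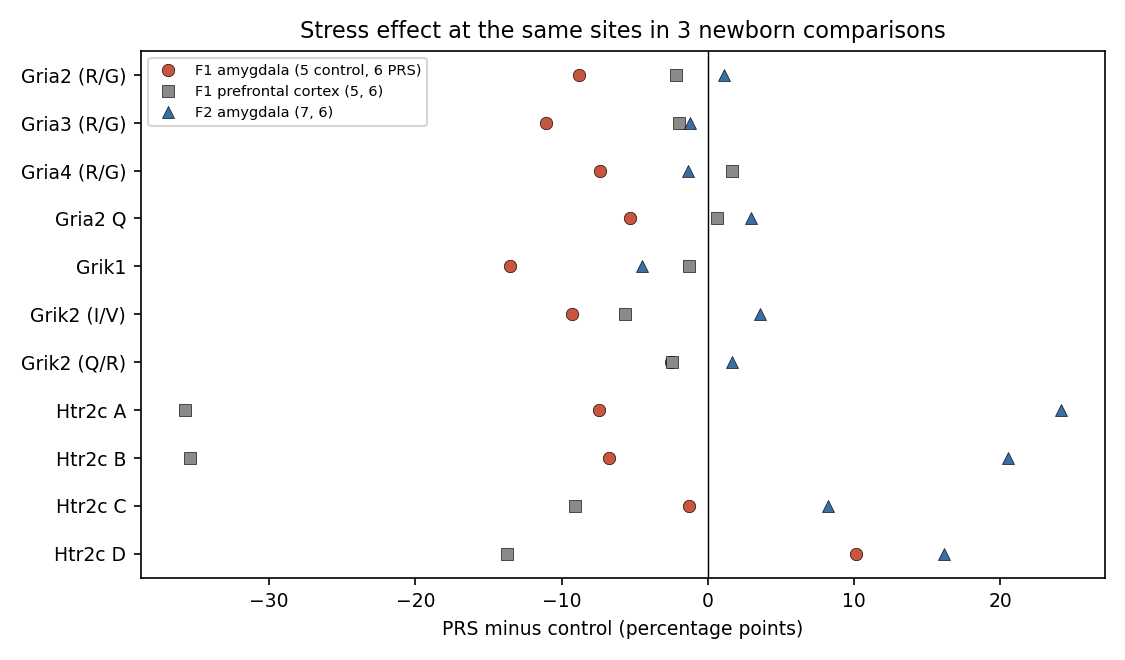
PRS minus control difference in mean editing level (percentage points) at 7 glutamate receptor sites and Htr2c A to D in F1 newborn amygdala, F1 prefrontal cortex and F2 newborn amygdala. The F1 amygdala points are the leftmost at the 3 R/G sites, Gria2 Q, Grik1 and Grik2 I/V, whereas at Htr2c A and B F1 prefrontal cortex lies to the left and F2 amygdala to the right. At Grik2 Q/R the F1 amygdala and F1 prefrontal cortex points nearly coincide (-2.55 and -2.47). Grik2 Y/C, not drawn, was at -3.79 in F1 amygdala and -4.22 in F1 prefrontal cortex.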

How the data were processed

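The authors amplified the target sites by mmPCR-seq, aligned them with BWA to rn4, a rat assembly, with splice junctions added (SAMtools is also named in the submitters' processing notes), and deposited for each sample, per site, the counts of all reads and of edited reads and the editing level as a fraction with 3 decimals, printed here as percent. The minimum of 50 reads was applied here, in at least 3 samples of each group, and depths stand in the report. For each site the Mann-Whitney U statistic was compared, two-sided and with ties at mid-ranks, with its exact distribution over all 462 label assignments, and p was adjusted by Benjamini-Hochberg over the 146 sites (FDR 0.1). Exact permutation also served for mean editing and for the difference between 2 stress effects (within sex as an alternative added after the data were seen), and correlations had 100000 resamples. A negative difference means a lower level in PRS. Among the alternatives was limma 3.58.1 (R 4.3.3) on log2-odds (logit) levels held between 0.1% and 99.9%. The tests were checked on simulated data. Sites are named if they lie in Htr2c A to D or the listed receptors, channels and other groups, had p under 0.05, did not overlap, or were among the 5 largest differences in either direction, and single-sample values were added after they were seen. Members and gene lists were chosen with earlier results of these data known. Library numbers come from the deposited files and their meaning is not given in the sources used here. Python 3.11.15, numpy 2.4.6 and scipy 1.17.1 were used.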

Additional observations from a re-analysis of the deposited data

Results flagged for a closer look

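Within groups of 5 or 6 samples, a highest or lowest sample was tested for distance from the rest with Dixon's test at the sites named above. Of 68 tests in all, 18 were past the 95% value. Some of these sites were named for a large difference, which 1 far sample can make, and several share an amplicon. The count of 18 can therefore not be set against a chance rate. Control 40 accounted for 8 of them: it was low at Grik1 (22.5%), Grik2 Q/R (83.7%), Gria3 R/G (61.4%), Gria4 R/G (28.3%), Grik2 G (3.2%) and Ankrd28 7168469 (0.8%) and high at Blcap 148267329 (3.3%) and Blcap 148267359 (33.3%). At the first 6 of these sites it lay within the range of the PRS samples, and it is the only one of these samples in its library-number set. PRS 53 was far from its group at Grik2 I/V (37.6%), Grik2 Y/C (39.3%), Grik2 G (5.9%) and Htr2c 31014486 (0.3%). PRS 50 was high at Nova1 66199286 (27.5%) and Son 31628548 (22.3%), PRS 49 at Blcap 148267329 (52.8%) and PRS 52 at Gria2 R/G (51.0%). Control 59 was low at Htr2c B (58.3%) and control 61 high at Dffa (13.0%).

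The PRS minus control difference differed between F1 and F2 amygdala by -31.6 percentage points at Htr2c A, -27.3 at Htr2c B and -9.85 at Adarb1 11709485, each past an FDR of 0.1 by exact permutation of the labels within each generation. The F2 groups were of unequal sex, with 1 female and 6 males in control and 5 females and 1 male in PRS, and with labels permuted within sex 0 of the 3 passed (adjusted exact permutation p = 0.152, 0.209 and 0.152). The other 33 positions listed in the files gave no signal: 2 had enough reads in F1 amygdala, both in Htr2c, and both were at 0 in every sample.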

How the results depend on the processing

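The count of sites past the FDR of 0.1 stayed at 0 in every alternative tried except adjustment by class, which gave 2. The count with an unadjusted p under 0.05, 11 as reported, was 18 with labels permuted within library-number sets, where control 40 kept its label. It was 1 in the last library set, where 3 against 4 samples cannot give a p under 0.05 without ties. In males it was 0, where 3 against 3 samples cannot give a p under 0.1. Both low counts are thus set by the sample numbers. Leaving out 1 sample gave 6 (without control 46) to 19 (without control 40), with 7 without control 56 and 7 without PRS 50. The difference in mean editing kept its direction throughout. It was no longer past 0.05 on the logit scale (-0.15 log2 odds, exact permutation p = 0.208), with reads pooled over a group (-0.621 points, exact permutation p = 0.0714), in the last library set (-0.707, exact p = 0.143), in males (-0.665, exact p = 0.3) and, chosen after the data were seen, without the glutamate receptor sites (-0.179, exact p = 0.457); leaving out 1 sample gave -0.730 to -0.478 points (exact p 0.0143 to 0.0476). The counts against F1 PFC (0) and F2 AMY (3) were the same on the logit scale. With labels permuted within sex, chosen after the data were seen, they were 0 and 0.

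Direction turned at Blcap 148267329 (-0.2 points in males; leaving out 1 sample gave -0.38, without PRS 49, to 10.02), Blcap 148267359 (0.0583 in the last library set; leaving out 1 sample gave -7.62 to 0.225, without control 40), Nova1 66199286 (-0.1 in that set), Son 31628548 (-0.25 in that set, -0.0667 in males; leaving out 1 sample gave -0.04, without PRS 50, to 4.3) and Grik2 Y/C (leaving out 1 sample gave -5.58 to 1.46, without PRS 53). Of the other sites named with values above, none changed sign in the alternatives tried, but the difference at Gria2 Q/R was 0 in the last library set and in males. Among receptor sites given above in counts only, Gria3 3477161 (0.125 points in the last library set, 0.167 in males) and Gria4 L (-0.0583 and -0.0333) had turned signs. Grik2 E, at 0.01 points with all samples, turned without control 56 and without PRS 53, and was at -0.167 in females. No paired analysis was possible because the groups share no replicate number.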
